A study of Mus musculus with 12 samples.

Results

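The 7 genes described here make, break down or carry the organic osmolytes of renal cells, and they were chosen by name as Akr1b3, Sord, Slc5a3, Slc6a6, Slc6a12, Pnpla6 and Gdpd5 out of 52015 genes with usable values. All 7 reached 0.5 FPKM (fragments per kilobase of exon, scaled to the mapped reads of the library) in 1 group or more, as did 13414 genes in all. RNA-seq was performed on mpkCCD cells, a mouse line that originates from principal cells of the cortical collecting duct. Scr cells had been transduced with a non-targeting scramble gRNA and were cultivated for 5 days at 300 mosmol/kg (Scr_300, 2 libraries) or at 600 mosmol/kg (Scr_600, 2 libraries). Nfat5-KO cells carried a CRISPR/Cas9 deletion of Nfat5 and were cultivated in the same ways (Nfat5-KO_300 and Nfat5-KO_600, 4 libraries each). Hypertonic medium contained an additional 100 mM NaCl and 100 mM urea, so the effects of the salt and of the urea cannot be told apart. The knockout libraries come from 2 clones, N1 and N3, and differences between clones and the loss of Nfat5 cannot be told apart in a group mean.

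Cells in a hypertonic environment lose water and replace inorganic ions by small organic molecules that leave proteins intact. Renal medullary cells use sorbitol, myo-inositol, taurine, betaine and glycerophosphocholine (GPC). NFAT5, also called TonEBP, is the transcription factor known to drive many of the genes that accumulate these osmolytes, by binding the tonicity-responsive enhancer (TonE). Sorbitol is made from glucose by aldose reductase (Akr1b3) and oxidised by sorbitol dehydrogenase (Sord), inositol, taurine and betaine are imported by Slc5a3, Slc6a6 and Slc6a12, and GPC is released from phosphatidylcholine by Pnpla6 and cleaved by Gdpd5.

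A pair of sequences from RefSeq promoter windows is printed here because Slc6a12 had the widest range of the 7 genes between groups and because NFAT5 binds TonE. RefSeq promoter windows (GRCm38.p6, 250 bases before to 50 bases after a transcription start) matched 4 of the 7 genes, at 10 starts, and Akr1b3, Slc6a6 and Gdpd5 had none. TonE, a motif that begins with TGGAAA, was searched on both strands. It was in 1 of 5 Slc6a12 windows, in 1 of 3 Pnpla6 windows and in neither the Sord nor the Slc5a3 window, against 4.96% of all 32851 windows. The 6 letters TGGAAA alone, which every TonE match holds, were in 1 Slc6a12 and 2 Pnpla6 windows, against 21.4% of all windows. In Slc6a12 the match was on the forward strand and began at position -75 relative to the RefSeq start (121342574), which lies 502 bases before the GENCODE start of the gene, so that the match is at -577 from the latter. In Pnpla6 it was on the reverse strand, within the first annotated exon of the gene, so only 30 bases are shown. A match describes the letters and does not show a binding site. The sequences are written on the forward strand with the TonE match in capitals.
Slc6a12, chr6:121342324-121342573: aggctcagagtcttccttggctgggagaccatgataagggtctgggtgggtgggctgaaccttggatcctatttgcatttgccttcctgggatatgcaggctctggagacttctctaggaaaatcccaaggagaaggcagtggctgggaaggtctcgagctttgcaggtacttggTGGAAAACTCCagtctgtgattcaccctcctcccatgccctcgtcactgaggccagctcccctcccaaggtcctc
Pnpla6, chr8:3515459-3515488: ctgaatggtACGAGTTTCCAtcgaccgagc

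The deposited values hold 1 FPKM per gene and group, the mean of the group's libraries. The FPKM of a gene times its exon length is a sum of whole reads, each worth a fixed amount per library. This allowed the reads per library to be recovered for most genes in the Scr groups, where 91.6% of 21884 genes (Scr_300) and 91.5% of 22387 genes (Scr_600) had exactly 1 solution. In the knockout groups it was possible only for genes with few reads, and of the 7 genes only Slc6a12 was resolved there. The libraries had between 29344029 and 37506799 mapped reads. Recovered libraries carry no sample name and are called A (the deeper) and B. Epithelial markers summed to between 1001 and 1645 FPKM. Of 12 principal cell markers 5 reached 1 FPKM, with Tfcp2l1 at 25.1 to 53.4 FPKM, while Aqp2 was at most 0.245 FPKM and Avpr2 and Elf5 were under 0.1 FPKM in every group. Summed principal cell markers were 50.7 FPKM in Scr_300, 34.8 in Scr_600, 69.6 in Nfat5-KO_300 and 100.4 in Nfat5-KO_600, and Gata3 was at 3.41, 4.33, 11.8 and 30.04 FPKM in the same order. Their part in the results below was not tested. Markers of intercalated cells, proximal tubule, fibroblasts and endothelium summed to at most 1.24 FPKM per list in any group, and the leukocyte list to at most 2.62 FPKM, nearly all from Cd68. In bulk RNA, fewer cells of a type and less RNA per cell cannot be told apart. Nfat5 itself was at 5.61 FPKM in Scr_300, 7.93 in Scr_600, 3.47 in Nfat5-KO_300 and 6.88 in Nfat5-KO_600. The transcript thus remained in the knockout groups at 61.8% and 86.7% of the Scr levels, and its level does not check the labels, since an edited gene can still be transcribed.

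**Figure D1:**
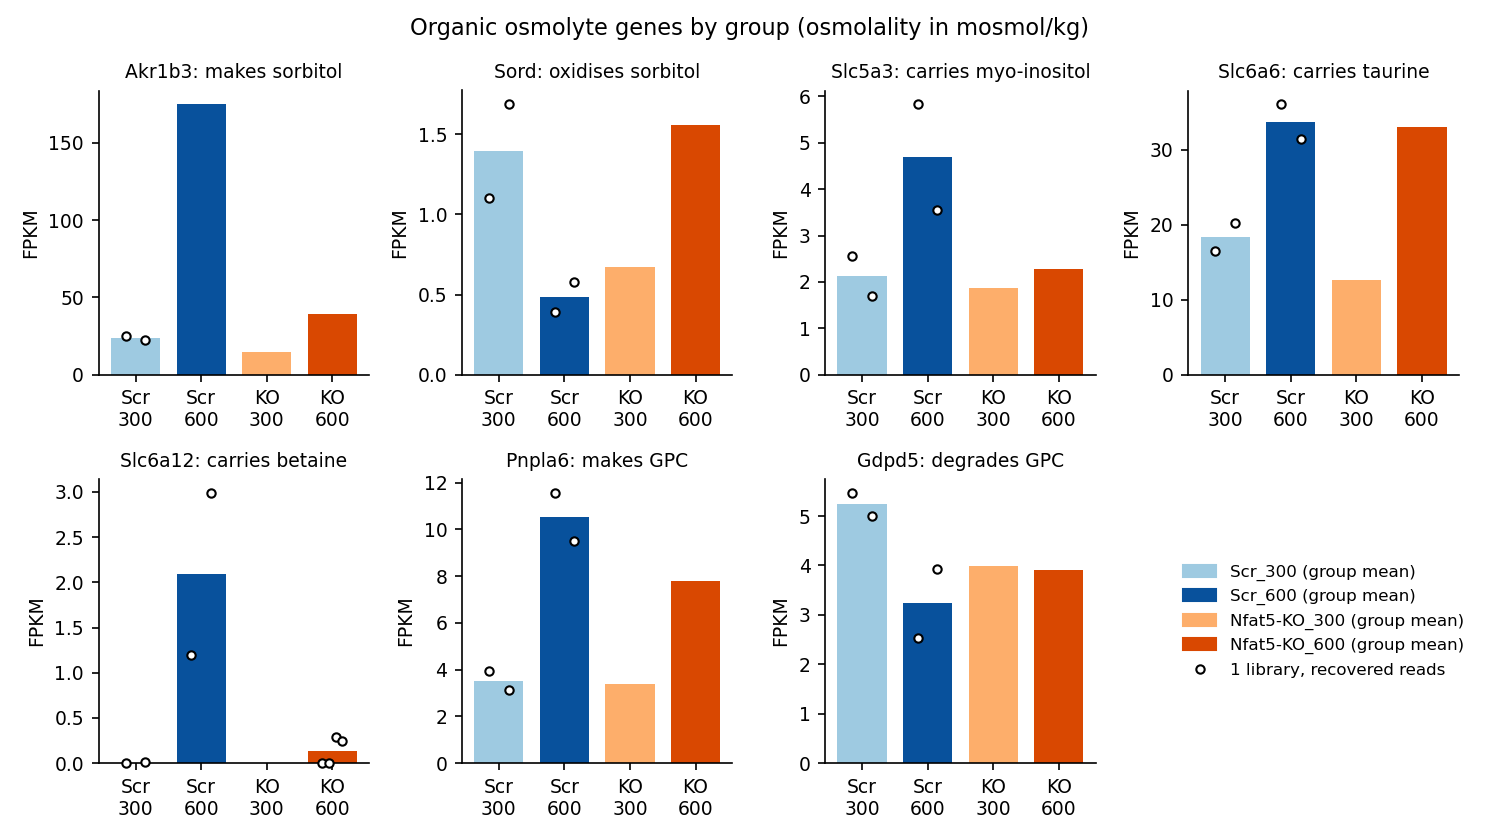
Bars give the deposited FPKM of each gene in the 4 groups (Scr and Nfat5-KO at 300 and 600 mosmol/kg, linear axis from 0), and open circles give single libraries where their reads could be recovered. Akr1b3 and Slc6a12 were highest in Scr_600, at 175 and 2.10 FPKM, Sord was lowest there at 0.485 FPKM, and Slc6a6 was nearly level between Scr_600 and Nfat5-KO_600 at 33.7 and 33.0 FPKM.

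The 2 sorbitol genes differed in direction in Scr cells. Akr1b3 (chromosome 6, 34302434 to 34317478, reverse strand, 7 merged exon blocks) catalyses the first step of the polyol pathway and was the most abundant of the 7 genes. It had 23.8 FPKM in Scr_300, 175 in Scr_600, 14.5 in Nfat5-KO_300 and 39.2 in Nfat5-KO_600. In Scr_600 it was the 161st most abundant of 13414 genes, against the 2101st in Scr_300. The Scr_300 libraries had 7630 and 5997 reads, or 25.3 and 22.4 FPKM, and both knockout means lay outside that range. The Scr_600 value had 10 solutions, with single libraries anywhere between 12.3 and 338 FPKM, so the spread behind the Scr_600 mean is unknown. In 9 of the 10 solutions both Scr_600 libraries lay above both Scr_300 libraries. As 9.96 solutions were due by chance alone, this count says nothing about the libraries themselves.

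Akr1b3 was 7.35-fold higher in Scr_600 than in Scr_300 (difference 2.87 in log2(FPKM + 0.1)), and 68 of the 12929 genes compared differed more in this direction. In knockout cells the same comparison gave 2.71-fold (1.43). At 300 mosmol/kg the knockout level was 60.6% of the Scr level (-0.72), and at 600 mosmol/kg it was 22.4% (-2.16). The tonicity effect was therefore 1.44 log2 units smaller in knockout than in Scr cells, yet Akr1b3 remained 1.65-fold above Scr_300 in Nfat5-KO_600.

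Sord (chromosome 2, 122234749 to 122265340, forward strand) was lower, not higher, at 600 mosmol/kg in Scr cells. Its levels were low throughout, at 1.39 FPKM in Scr_300, 0.485 in Scr_600, 0.670 in Nfat5-KO_300 and 1.56 in Nfat5-KO_600. The Scr_300 libraries had 93 and 127 reads (1.10 and 1.69 FPKM) and the Scr_600 libraries 34 and 48 reads (0.389 and 0.581 FPKM), without overlap. Sord was thus 2.87-fold lower in Scr_600 than in Scr_300 (-1.35), but 2.33-fold higher in Nfat5-KO_600 than in Nfat5-KO_300 (1.11). At 600 mosmol/kg the knockout level was 3.22-fold above the Scr level (1.505), whereas at 300 mosmol/kg it was 48.1% of it (-0.96). The knockout mean at 600 mosmol/kg lay within the range of the Scr_300 libraries, and the mean at 300 mosmol/kg lay between the Scr_300 and the Scr_600 libraries. The genotypes differed by 2.46 log2 units in their tonicity effect, which 52 of 13414 genes exceeded in this direction, and 20 genes (0.149%) were at least 2-fold lower in Scr and at least 2-fold higher in knockout cells at 600 mosmol/kg. The reads per knockout library could not be resolved for Sord, so the spread between clones is unknown.

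Slc5a3 (chromosome 16, 92058322 to 92087473, forward strand) encodes the sodium-dependent myo-inositol transporter SMIT1. Its levels were 2.12 FPKM in Scr_300, 4.69 in Scr_600, 1.87 in Nfat5-KO_300 and 2.27 in Nfat5-KO_600. Only Scr_600 stood apart, since both knockout means lay within the range of the Scr_300 libraries, 1.69 to 2.56 FPKM. The Scr_300 libraries had 1003 and 590 reads, and the Scr_600 libraries had 2365 and 1362 reads (5.84 and 3.55 FPKM), both above Scr_300. Slc5a3 was 2.21-fold higher in Scr_600 than in Scr_300 (1.11) and 1.21-fold higher in knockout cells (0.27), and Nfat5-KO_600 was at 48.3% of Scr_600 (-1.02). Without library A of Scr_600 these differences were 0.72 in Scr cells and -0.63 between genotypes, and without library B of Scr_300 the Scr difference was 0.85, all of them below 2-fold.

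Slc5a3 lies within Mrps6, a gene for a mitochondrial ribosomal protein (chromosome 16, 92058270 to 92112227, same strand), and both share 159 exon bases, which are 1.46% of the exon bases of Slc5a3 and 10.4% of those of Mrps6. A further gene annotated as protein-coding on the same strand, Gm49711 (92058316 to 92187341), overlaps both. Mrps6 had 12.3 FPKM in Scr_300, 20.5 in Scr_600, 10.8 in Nfat5-KO_300 and 13.4 in Nfat5-KO_600. Slc5a3 had the same order of groups, as did Akr1b3, Slc6a6, Pnpla6 and Nfat5, so the order is not particular to this pair. For Slc6a12 the isotonic groups held 1 read (Scr_300) and 0 reads (Nfat5-KO_300) and cannot be ordered. The differences of Mrps6 were 0.73 in Scr cells and 0.31 in knockout cells, and -0.61 between genotypes at 600 mosmol/kg. How the counting assigned reads in the shared bases is not given in the sources used here.

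Slc6a6 (chromosome 6, 91684053 to 91759066, forward strand), the taurine transporter, differed from the other importers in the knockout. It had 18.3 FPKM in Scr_300, 33.7 in Scr_600, 12.7 in Nfat5-KO_300 and 33.0 in Nfat5-KO_600. The Scr_300 libraries were at 16.4 and 20.2 FPKM (4997 and 5467 reads) and the Scr_600 libraries at 36.1 and 31.4 FPKM (11329 and 9329 reads), so that the groups did not overlap. Nfat5-KO_600 lay within the range of the Scr_600 libraries, at 97.7% of their mean (-0.03), and Nfat5-KO_300 lay below both Scr_300 libraries, at 69.1% of their mean (-0.53). Slc6a6 was 1.84-fold higher at 600 than at 300 mosmol/kg in Scr cells (0.88) and 2.60-fold higher in knockout cells (1.37).

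Slc6a12 (chromosome 6, 121343076 to 121365775, forward strand, 17 merged exon blocks), the betaine transporter BGT1 that also carries GABA and whose promoter sequence is given above, was almost silent in isotonic medium. Library A of Scr_300 had no read and library B had 1 read. At 600 mosmol/kg, library A of Scr_600 had 136 reads and library B had 321 reads (2.99 FPKM). Relative to the mapped reads this was 429 times the Scr_300 level, with an exact 95% interval of 76.7 to 16998 that covers counting error only.

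In knockout cells Slc6a12 was listed at 0 in Nfat5-KO_300, which means no read in 4 libraries. In Nfat5-KO_600 the recovered reads were 0, 0, 31 and 25, from the deepest to the shallowest library. The group value of 0.135 FPKM thus came from 2 of the 4 libraries, at 0.293 and 0.246 FPKM, and the other 2 had none. All 4 libraries lay below both Scr_600 libraries. Which libraries came from clone N1 and which from clone N3 is not known from these values. The group level was 6.43% of that in Scr_600, a difference of -3.23, and 21 of 13063 genes were lower in this comparison. In summed reads Scr_600 was 15.9 times Nfat5-KO_600 relative to the mapped reads (exact 95% interval 12.03 to 21.4, again counting error only, which does not cover the spread between libraries). Without library B of Scr_600 the difference between the group values was -2.47, and without library A it was -3.72. Against the level that 3 reads over the group would give in Nfat5-KO_300 (0.00785 FPKM), Nfat5-KO_600 was at least 17.2-fold higher. Scr_300 and Nfat5-KO_300 both lay under that limit and were not compared.

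The GPC enzymes also differed from each other. Pnpla6 (chromosome 8, 3515384 to 3544267, forward strand), or neuropathy target esterase, removes both fatty acids of phosphatidylcholine and so forms GPC. It had 3.53 FPKM in Scr_300, 10.5 in Scr_600, 3.41 in Nfat5-KO_300 and 7.81 in Nfat5-KO_600. The Scr_300 libraries were at 3.94 and 3.12 FPKM and included the isotonic knockout mean in their range. The Scr_600 libraries were at 11.6 and 9.50 FPKM (4169 and 3235 reads), and the hypertonic knockout mean was below both. Pnpla6 was 2.99-fold higher at 600 than at 300 mosmol/kg in Scr cells (1.55) and 2.29-fold higher in knockout cells (1.17), and Nfat5-KO_600 was at 74.1% of Scr_600 (-0.43).

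Gdpd5 (chromosome 7, 99381414 to 99461877, forward strand), also called GDE2, cleaves GPC to choline and glycerol phosphate. Its levels spanned the narrowest range of the 7 genes, with 5.24 FPKM in Scr_300, 3.24 in Scr_600, 3.99 in Nfat5-KO_300 and 3.92 in Nfat5-KO_600. The Scr_300 libraries were at 5.48 and 5.00 FPKM and the Scr_600 libraries at 2.53 and 3.94 FPKM, so that both knockout means lay below the Scr_300 libraries, and the hypertonic one within the range of Scr_600. Gdpd5 was 1.62-fold lower in Scr_600 than in Scr_300 (-0.68) and nearly level in knockout cells (-0.02).

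Reads per library allowed a test of tonicity in Scr cells, which was added after the values had been seen (limma with a trend on log2(FPKM + 0.1), 2 against 2 libraries, Benjamini-Hochberg adjustment over 11563 genes). It called 103 genes higher (0.891%) and 68 lower (0.588%). Pnpla6 rose by 1.55 ± 0.18 (SE, limma adjusted p = 0.0325). Slc6a12 also passed (4.26 ± 0.57, limma adjusted p = 0.0440), but its Scr_300 libraries held 0 and 1 read. The size and the p-value of the Slc6a12 change therefore depend on the pseudocount, and the gene met the 0.5 FPKM filter only through Scr_600. The reads given above, and not this call, describe its change. Akr1b3 has no call, since its limma adjusted p ranged from 0.0102 to 0.590 over the 10 solutions and was under 0.05 in 5 of them. Slc6a6 (0.88 ± 0.15, adjusted p = 0.0680), Sord (-1.34 ± 0.35, adjusted p = 0.131), Slc5a3 (1.09 ± 0.31, adjusted p = 0.145) and Gdpd5 (-0.71 ± 0.23, adjusted p = 0.177) missed the limma threshold of 0.05. The libraries of the 6 resolved genes did not overlap between tonicities (4 higher and 2 lower at 600 mosmol/kg), which with 2 against 2 libraries was also true of 23.7% of all genes in the higher and 31.7% in the lower direction. The study calls its replicates biological, and the labels do not say how the cultures were separated. These p-values weigh each difference against the spread between the libraries, which limma estimates partly from the trend over all genes. In the knockout groups only Slc6a12 of the 7 genes could be tested over libraries. Its mean was lower in Nfat5-KO_600 (4 libraries) than in Scr_600 (2 libraries). The exact two-sided permutation p was 0.133, the smallest that 4 against 2 libraries allow. This test could therefore not reach 0.05 and decides nothing. Both permutation tests here treat the knockout libraries as separate units, although each knockout group holds libraries of clones N1 and N3. For Nfat5-KO_600 against Nfat5-KO_300 the exact two-sided permutation p was 0.429 (4 against 4 libraries). Untied values would allow 0.0286. Here all reads lay in 2 libraries of Nfat5-KO_600 and the other libraries were tied at 0. No arrangement of these values gives a smaller p, so the test cannot decide whether these groups differ.

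**Figure D2:**
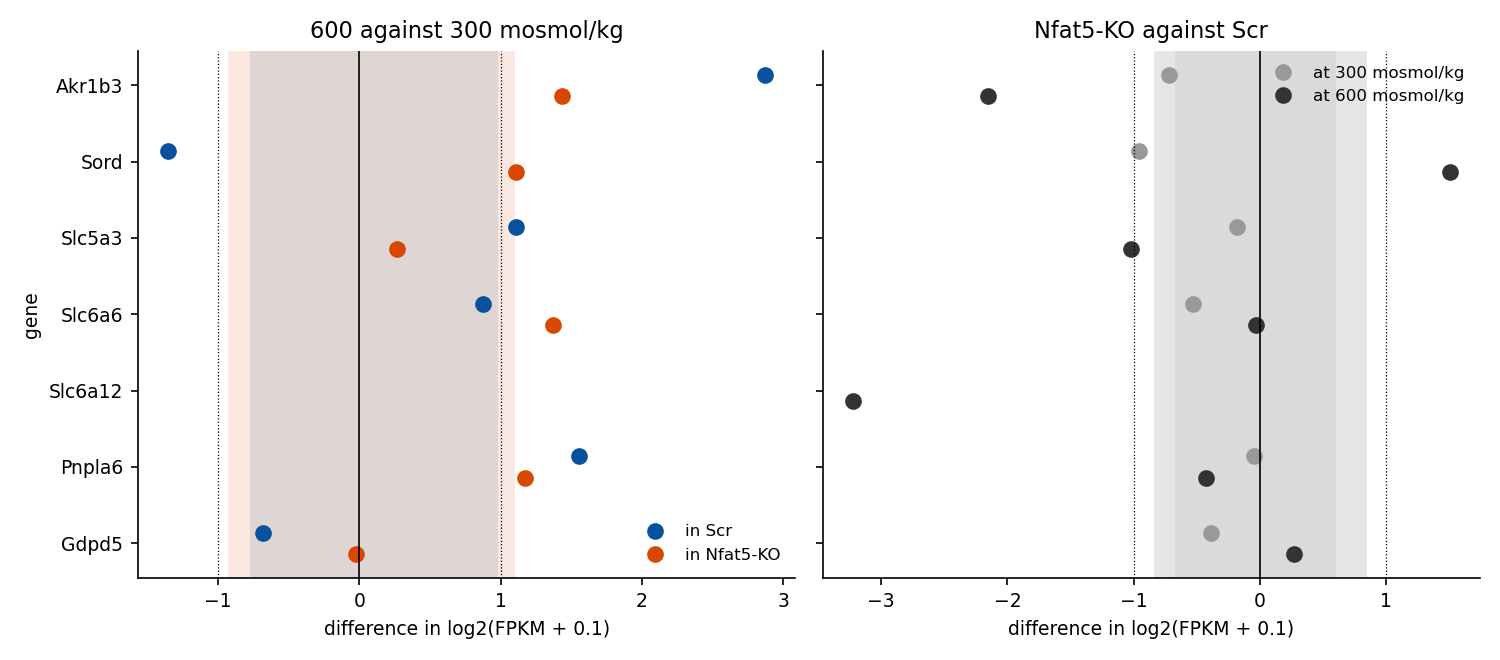
Points give the difference in log2(FPKM + 0.1) of each gene for 600 against 300 mosmol/kg (left) and for Nfat5-KO against Scr (right). Shaded bands hold the central 90% of all genes compared, dotted lines mark 2-fold, and Slc6a12 has a point only where neither group was under 0.1 FPKM. Sord lies on opposite sides of 0 in the 2 genotypes, at -1.35 and 1.11, and Akr1b3 has the largest drawn difference on the left at 2.87.

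Set side by side, 4 of the 7 genes (Akr1b3, Slc5a3, Slc6a12 and Pnpla6) were at least 2-fold higher in Scr_600 than in Scr_300, where 4.81% of all 12929 genes were. Sord (1 of 7) was at least 2-fold lower, where 2.86% of all genes were. Slc6a12 met the 0.5 FPKM filter only through Scr_600, so its place among the higher genes was fixed in advance. Its value in the median below depends on the pseudocount. Sord met the filter only through Scr_300 and could not have counted as higher. In knockout cells 4 of the 6 genes that could be compared (Akr1b3, Sord, Slc6a6 and Pnpla6) were at least 2-fold higher at 600 mosmol/kg, against 6.25% of all 12982 genes, and none was at least 2-fold lower, against 4.11%. The median of the 7 genes was 1.11 in Scr cells and that of the 6 was 1.14 in knockout cells, beside -0.04 for all genes in both. Slc6a12 was left out of the knockout count and median because Nfat5-KO_600 had under 0.5 FPKM, so the medians cover different sets of genes.

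Between genotypes at 300 mosmol/kg, 0 of 6 genes differed by 2-fold or more, against 1.73% of all 12704 genes that were higher and 2.44% that were lower in the knockout. All 6 were nevertheless below their Scr level, with a median of -0.46 beside -0.0015 for all genes, of which 49.8% were above theirs. Without library A of Scr_300, Slc5a3 and Pnpla6 lay above the Scr level (0.14 and 0.12). Without library B they lay below it (-0.43 and -0.20). Sord, Slc6a6 and Gdpd5 stayed below it either way. At 600 mosmol/kg Akr1b3, Slc5a3 and Slc6a12 were at least 2-fold lower in the knockout (3 of 7, against 3.68% of all 13063 genes) and Sord was at least 2-fold higher (1 of 7, against 3.76%). Slc6a6, Pnpla6 and Gdpd5 were within 2-fold. Slc6a12 met the 0.5 FPKM filter here only through Scr_600, so its place among the lower genes was fixed in advance. Sord met it only through Nfat5-KO_600 and could not have counted as lower. The comparisons share their groups, so a low Scr_600 value, for example, enters both the tonicity and the genotype comparison.

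**Figure D3:**
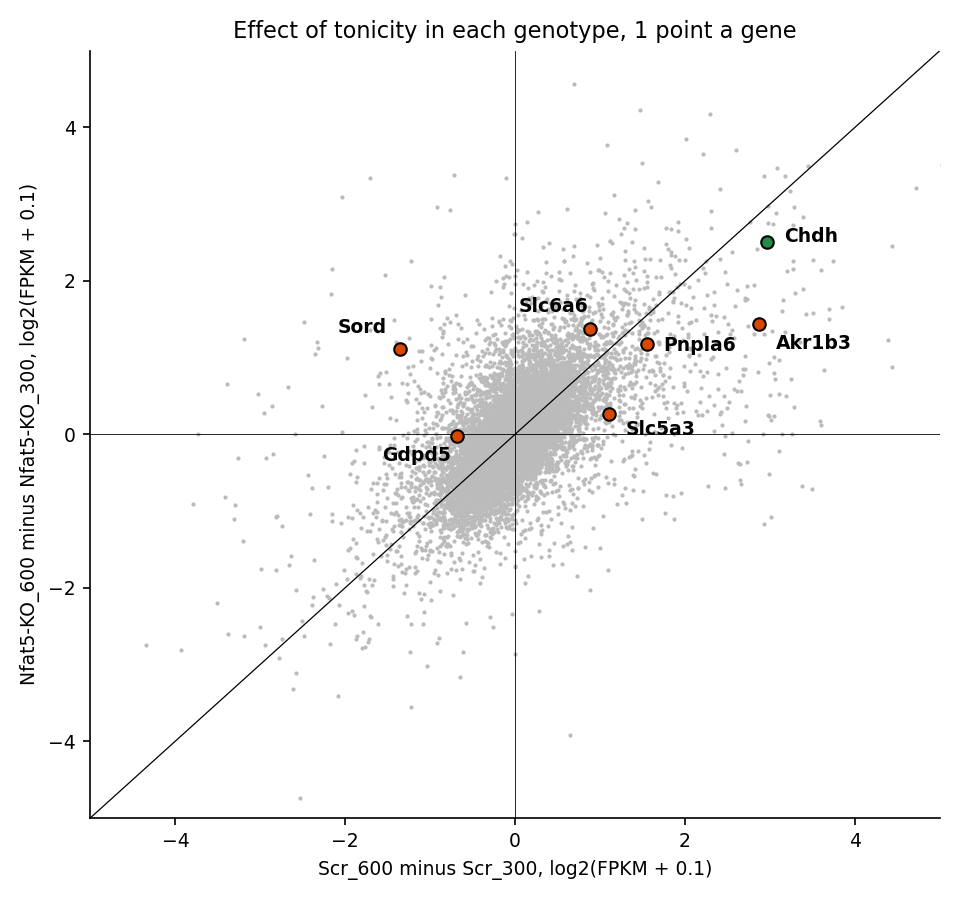
Each grey point is 1 of the 13414 genes that reached 0.5 FPKM in a group, plotted by its tonicity effect in Scr cells (horizontal) and in Nfat5-KO cells (vertical), both as differences in log2(FPKM + 0.1), with a line of equality. Slc6a12 is not drawn because it was under 0.1 FPKM in both isotonic groups, and 7 genes lie outside the axes. Akr1b3 and Slc5a3 lie below the line, Slc6a6 above it, and Sord in the quadrant of opposite signs.

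Of the 6 genes with at least 0.1 FPKM in every group, Akr1b3 had a tonicity effect at least 1 log2 unit smaller in knockout than in Scr cells (3.16% of all genes did) and Sord one that was at least 1 unit larger (3.88%). The others were at -0.84 (Slc5a3), -0.38 (Pnpla6), 0.50 (Slc6a6) and 0.65 (Gdpd5), and the median of the 6 was 0.06 beside -0.01 for all genes. The 7 genes thus did not share 1 pattern. The closest pair in shape over the 4 groups was Slc6a6 and Pnpla6, with a distance of 0.50 between their centred log2 values, and the most distant was Sord and Slc6a12 at 4.49.

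Other genes of the same osmolyte routes were read from 5 lists with 43 genes besides the 7. Of these, 29 could be compared. In Scr cells 2 were at least 2-fold higher at 600 mosmol/kg (6.90%, against 4.81% of all genes) and 0 lower (against 2.86%), and their median was 0.04. In knockout cells 4 were higher (13.8%, against 6.25%) and 1 lower (3.45%, against 4.11%), with a median of -0.01. Between genotypes at 300 mosmol/kg 1 was lower in the knockout (3.45%, against 2.44%) and 0 higher (against 1.73%), with a median of -0.04. At 600 mosmol/kg 2 were lower (6.90%, against 3.68%) and 0 higher (against 3.76%), with a median of 0.06.

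Chdh, choline dehydrogenase, which oxidises choline on the way to betaine, had the largest difference among them. Its level was 2.38 FPKM in Scr_300 (2.80 and 1.95 in the libraries), 19.3 in Scr_600 (17.0 and 21.6), 0.622 in Nfat5-KO_300 and 3.997 in Nfat5-KO_600. It rose in Scr cells by 2.98 ± 0.22 (SE, limma adjusted p = 0.0153) and was 2.51 higher at 600 than at 300 mosmol/kg in knockout cells. Nfat5-KO was below Scr by 1.78 log2 units at 300 and by 2.24 at 600 mosmol/kg. Chdh, like Slc6a12 on the import side of betaine, thus had its highest level in Scr_600, but unlike Slc6a12 it had a large tonicity difference with reads in the isotonic groups. Slc44a2, a choline transporter-like protein, was at 19.4, 27.3, 20.2 and 41.7 FPKM in Scr_300, Scr_600, Nfat5-KO_300 and Nfat5-KO_600.

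On the polyol route, Akr1b8, an aldo-keto reductase related to Akr1b3, had 3.69 FPKM in Scr_300, 10.2 in Scr_600, 4.68 in Nfat5-KO_300 and 5.66 in Nfat5-KO_600. Its Scr difference of 1.41 ± 0.22 narrowly missed the threshold (limma adjusted p = 0.0546), and in knockout cells it was 0.27. The glucose transporter Slc2a1, which brings in the substrate of aldose reductase, was 1.13 log2 units lower in Nfat5-KO_600 than in Scr_600 (13.2 against 29.2 FPKM). Khk, ketohexokinase, which phosphorylates the fructose that Sord makes, was 1.26 higher at 600 than at 300 mosmol/kg in knockout cells (1.54 and 3.83 FPKM) and level in Scr cells (2.19 and 2.17 FPKM). On the taurine route, Csad, the decarboxylase that makes hypotaurine, was 1.39 higher in knockout and 0.84 higher in Scr cells at 600 mosmol/kg. Slc16a6, which can carry taurine out of cells, was 2.04 lower in knockout and 0.88 lower in Scr cells. In the inositol and GPC lists no gene besides Slc5a3 and Pnpla6 was at least 2-fold apart in any comparison.

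**Figure D4:**
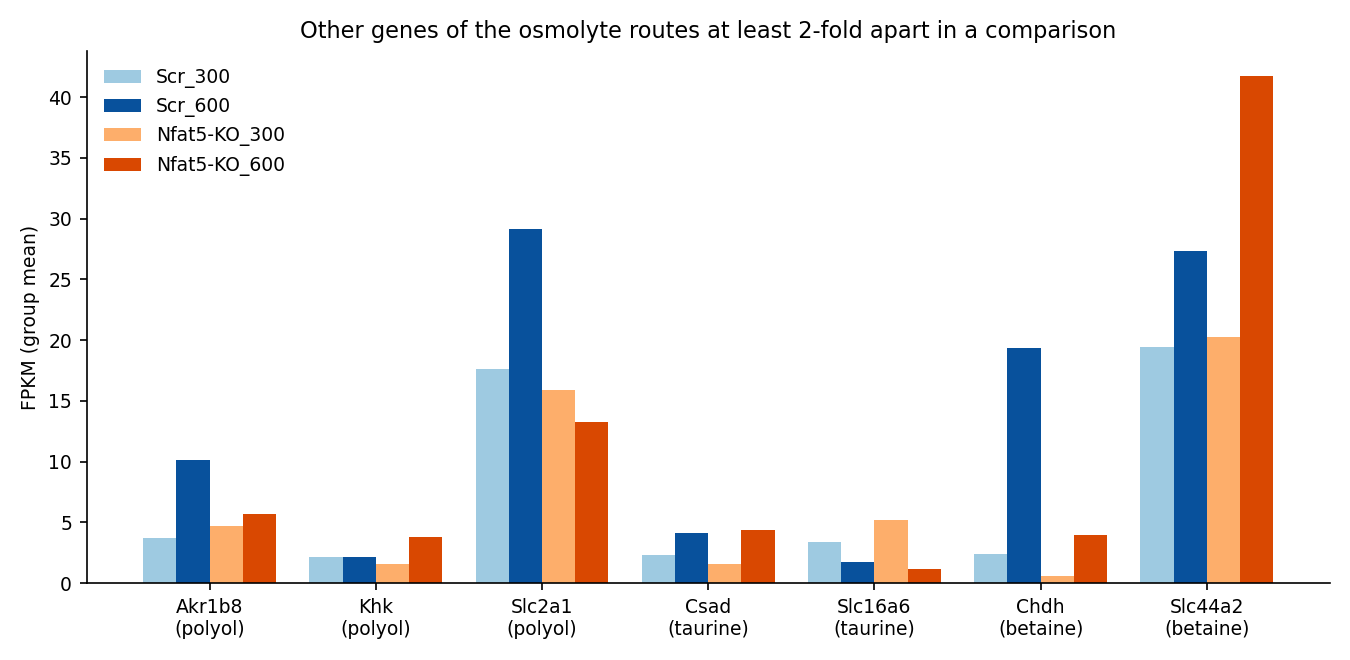
Bars give the deposited FPKM (linear axis from 0) in the 4 groups for the 7 other genes of the osmolyte routes that reached 1 FPKM in a group and were at least 2-fold apart in a comparison. Chdh is highest in Scr_600 at 19.3 FPKM and Slc44a2 in Nfat5-KO_600 at 41.7 FPKM.

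The genes most like each of the 7 in shape were found by the distance between centred log2(FPKM + 0.1) values over the 4 groups, among 11920 genes that reached 1 FPKM. With only 4 points per gene, many genes lie close to any pattern. Akr1b3 had Il17rb (distance 0.26), Rtp4 (0.31) and 1700016C15Rik (0.38) nearest to it. For Slc6a12 no gene was nearer than 0.81 (Gm5868), followed by Rnf183 (0.84) and Tmem238l (0.94), all 3 of them highest in Scr_600. Sord was nearest to Gm11084 (0.26), Smim6 (0.39) and Gm28875 (0.40), which were likewise lowest in Scr_600 or Nfat5-KO_300 and highest in Nfat5-KO_600. Slc6a6 had Csad, the taurine-route enzyme above, as its second nearest gene (0.072) after Arhgef37 (0.057) and before Ly6g5b (0.095). The nearest genes of Slc5a3 were Gm26765 (0.072), Dancr (0.082) and Grb14 (0.083), those of Pnpla6 were Snora34 (0.12), Mir135b (0.18) and 4933408B17Rik (0.18), and those of Gdpd5 were H3f3a-ps1 (0.055), Lims1 (0.10) and Prkcz2 (0.10).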

How the data were processed

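Per the labels and the methods of the study, total RNA of 12 samples was made into NEBNext Ultra libraries, paired-end reads were mapped to GRCm38 (mm10) with HISAT2, and HTSeq counted reads per gene. The authors deposited FPKM values, 1 mean per gene and group (called RPKM in the methods). Of 54828 rows, 311 exact duplicates were removed and 52015 genes were used. Differences were taken in log2(FPKM + 0.1) over genes with at least 0.5 FPKM in either group, for single genes only if neither group was under 0.1 FPKM, and 2-fold was the limit for a count. The planned fold comparisons have no test. Exon lengths and positions come from GENCODE M21. Whole reads were recovered from FPKM times merged exon length where exactly 1 solution lay within 1.2 times the rounding and at most 0.5 solutions were due by chance, and limma 3.58.1 (R 4.3.3) was run on them after the data had been seen. Other pseudocounts, filters, scalings and fold limits were tried, and each recovered Scr library was left out in turn. Read recovery in the Scr groups, the fold step and the limma step were tried on simulated data. Read recovery in the knockout groups was not. A floor of 3 reads stood for counts of 0. Named genes were the 7, Nfat5, Mrps6, listed route genes with at least 1 FPKM that were at least 2-fold apart in a comparison, the 3 genes nearest to each of the 7, and markers. Slc6a12 promoter and Gm49711 were named for their position. The 7 genes and all lists were chosen with earlier results of these data known. Python 3.11.15, numpy, pandas and scipy were used.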

Additional observations from a re-analysis of the deposited data

Results flagged for a closer look

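Sord was the 1 gene of the 7 whose tonicity effect had opposite signs in the 2 genotypes with no overlap of the Scr libraries. It was lower at 600 than at 300 mosmol/kg in both Scr_600 libraries against both Scr_300 libraries and higher in the Nfat5-KO_600 mean than in the Nfat5-KO_300 mean, a difference of 2.46 log2 units between genotypes. In Scr cells the difference missed the threshold (limma adjusted p = 0.131), and 31.7% of all genes had both Scr_600 libraries below both Scr_300 libraries. With a pseudocount of 1 the tonicity effects of Sord were -0.69 in Scr and 0.62 in knockout cells, both under 2-fold. The difference between genotypes was not tested, because the reads of the 4 + 4 knockout libraries could not be resolved for Sord.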

How the results depend on the processing

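No paired analysis was possible because the deposited columns hold group means and the recovered libraries carry no replicate number. The 7 genes gave 217 values under 7 other settings, of which 201 stayed on the same side of the limit in use. Of the rest, 7 dropped below 2-fold and 9 passed the limit, 6 of them only because it was lowered to 1.5-fold. Among the called ones 0 changed sign. Changing the filter or the limit leaves the ratio of a single gene as it was. The 31 values under each of those settings were therefore unchanged in advance and are no check of the ratios. A pseudocount of 1 took Sord below 2-fold in 3 comparisons, Slc5a3 in 2 and Pnpla6 in 1 (1.17 to 0.999 in knockout cells). The numbers of genes at least 2-fold apart depended on the settings. For Scr_600 against Scr_300, Nfat5-KO_600 against Nfat5-KO_300, Nfat5-KO_300 against Scr_300, Nfat5-KO_600 against Scr_600 and the difference of tonicity effects they were 992, 1346, 530, 972 and 944 as reported. With a pseudocount of 1 they were 375, 489, 135, 338 and 304, with no filter 1835, 2211, 1228, 1884 and 2149, with a mean of at least 1 FPKM 553, 855, 259, 548 and 463, and with a limit of 1.5-fold 2510, 3628, 1459, 2518 and 2446. Over the route lists with the 7 genes included, 13 genes were apart in any comparison, and 23 with the 1.5-fold limit. limma called 171 genes in Scr cells. Scaling all groups to the same sum (TPM) moved the median of all genes by 0.13 in Scr cells, 0.24 in knockout cells, 0.015 between genotypes at 300 and 0.13 at 600 mosmol/kg, which raised the share of higher genes among those 2-fold apart from 62.7% to 70.8% in Scr cells, from 60.3% to 80.8% in knockout cells and from 50.5% to 61.2% between genotypes at 600 mosmol/kg. Under TPM, Slc6a6 passed 2-fold in Scr cells (1.01), Sord between genotypes at 300 mosmol/kg (-1.01), and Slc5a3 fell short of it between genotypes at 600 mosmol/kg (-0.92). Leaving out each recovered Scr library moved Slc5a3 to between 0.72 and 1.42 in Scr cells, Sord to between -1.22 and -0.64 between genotypes at 300 mosmol/kg, Slc6a6 to between 0.74 and 1.03 and Gdpd5 to between -1.02 and -0.40 in Scr cells, and Slc6a12 to between -3.72 and -2.47 between genotypes at 600 mosmol/kg. The causes were not tested.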
